A study of Mus musculus with 9 samples.

Results

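The genes described here code for the endocytic receptors cubilin (Cubn) and megalin (Lrp2), the megalin relative Lrp1, the adaptor Dab2 and the receptor chaperone Lrpap1, with amnionless (Amn) as the remaining named member. The members were named by their known roles, with earlier results of these data known, and their transcripts were summed per gene. Of the 6 named members, 5 were listed among the 13787 genes of the deposited table and all 5 were tested. Amn was not analysed here. RNA sequencing was performed on 9 libraries. The 3 MEF libraries came from fibroblasts of CF-1 mouse embryos at passage 3, grown in DMEM with foetal bovine serum. The ciXEN cells, extraembryonic endoderm-like cells, were made from MEFs by VPA, CHIR99021, RepSox, Parnate, forskolin, AM580 and EPZ004777 with bFGF on Matrigel, with no transgene, and were then kept in a maintenance medium that still held these chemicals, bFGF and serum replacement. Lines 1-1, 2-1 and 3-3, described as separate batches of cells and grown from hand-picked clones, were each sequenced at passage 5 (p5) and passage 30 (p30), which gave 6 ciXEN libraries. MEFs were never grown in that medium, so cell type and medium cannot be told apart.

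Cubilin and megalin are very large receptors that bind proteins at the apical surface of absorptive epithelia and carry them into the cell in clathrin-coated vesicles. Cubilin has no membrane-spanning segment and depends on amnionless to reach the surface, while megalin has a cytoplasmic tail that binds the adaptor Dab2. The pair is known from the kidney proximal tubule, the ileum and the visceral endoderm of the mouse yolk sac, where maternal proteins, vitamin B12 and lipoproteins are taken up for the embryo. Lrp1 belongs to the same LDL receptor family as megalin and is known for clearing proteases, their inhibitors and matrix proteins in fibroblasts, macrophages and hepatocytes. Lrpap1 (RAP) is a chaperone of the endoplasmic reticulum that keeps ligands away from newly made Lrp1 and megalin.

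The promoters of the receptors and of Dab2 are shown because Cubn and Lrp2 rose together, Lrp1 fell and Dab2 did neither on average. They are RefSeq windows on GRCm38.p6, from 250 bases before to 50 after the annotated start, on the strand of the gene, with CpG dinucleotides in capitals. The windows are chr2:13491827-13492126 (minus strand) for Cubn, chr2:69585980-69586279 (minus) for Lrp2, chr10:127621099-127621398 (minus) for Lrp1 and chr15:6386498-6386797 (plus) for the start of Dab2 from which most of its listed transcripts run.
Cubn: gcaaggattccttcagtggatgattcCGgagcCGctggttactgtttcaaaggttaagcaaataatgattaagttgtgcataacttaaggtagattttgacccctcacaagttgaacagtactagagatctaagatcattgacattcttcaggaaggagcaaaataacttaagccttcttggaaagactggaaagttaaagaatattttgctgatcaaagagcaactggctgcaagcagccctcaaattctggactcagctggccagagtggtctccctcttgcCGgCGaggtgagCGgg
Lrp2: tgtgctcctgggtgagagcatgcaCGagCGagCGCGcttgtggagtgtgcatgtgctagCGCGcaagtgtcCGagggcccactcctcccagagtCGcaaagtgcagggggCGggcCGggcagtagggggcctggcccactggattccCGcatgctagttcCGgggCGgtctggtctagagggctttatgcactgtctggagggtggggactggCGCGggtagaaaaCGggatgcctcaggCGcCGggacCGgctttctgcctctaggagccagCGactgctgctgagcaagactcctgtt
Lrp1: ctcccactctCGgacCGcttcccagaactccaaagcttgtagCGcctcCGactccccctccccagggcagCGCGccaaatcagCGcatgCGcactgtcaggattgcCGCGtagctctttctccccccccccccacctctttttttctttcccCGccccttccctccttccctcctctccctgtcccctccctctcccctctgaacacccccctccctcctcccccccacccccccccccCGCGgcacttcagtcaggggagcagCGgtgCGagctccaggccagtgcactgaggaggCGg
Dab2: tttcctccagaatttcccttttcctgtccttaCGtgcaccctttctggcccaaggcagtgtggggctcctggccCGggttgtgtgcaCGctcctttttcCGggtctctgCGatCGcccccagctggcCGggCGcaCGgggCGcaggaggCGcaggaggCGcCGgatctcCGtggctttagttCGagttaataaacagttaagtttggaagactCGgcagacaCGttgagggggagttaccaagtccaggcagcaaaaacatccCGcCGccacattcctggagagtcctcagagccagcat
The Cubn window held 5 CpG dinucleotides, and 43.6% of the 32851 mouse windows in the table held as many or fewer, against a median of 7. The windows of Lrp2, Lrp1 and Dab2 held 20, 16 and 19 CpG dinucleotides, which 75.2%, 68.6% and 73.5% of windows did not exceed. Short motifs were searched on both strands. The GATA factor motif was taken as AGATAA or as its variant with a first base of T, TGATAA, and 18.6% of all windows held it. The SOX motif was taken as ATTGTT (10.7% of windows), the forkhead motif of the FOXA factors as TGTTTAC (3.65%) and the core promoter box as TATAAA (13.6%). None of them was in the windows printed above or in that of Lrpap1 at chr5:35105650-35105949. A further Dab2 window, farther upstream at chr15:6299539-6299838, held 2 matches of the GATA factor motif, and had 2 CpG dinucleotides. These matches describe letters, not bound sites.

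The values are FPKM, fragments per kilobase of transcript and sequencing depth, which allow levels of different genes to be set side by side. Sums over the table ran from 315395 to 342201 FPKM per library, and read depth is unknown. The labels were checked against marker lists. The summed FPKM of 7 primitive endoderm markers was 3.40 to 6.67 in MEFs and 610 to 877 in ciXEN cells. That of 7 fibroblast markers was 2121 to 2569 and 11.3 to 22.8. For 7 visceral endoderm markers it was 0.0194 to 3.25 and 218 to 284, with Afp at 0 in MEFs. Of these, Cited1, Ihh and Hnf4a were higher in ciXEN cells by 6.78, 4.84 and 1.36 on the log2 scale. Apoa1 did not pass the test (0.41, limma adjusted p = 0.2). Afp, Ttr and Apob were below the filter of a mean of 0.5 FPKM over all libraries and were not tested. The summed FPKM of 5 parietal endoderm markers was lower in ciXEN cells, at 2257 to 2437 in MEFs and 992 to 1578 in ciXEN cells. By gene this list was mixed. Lamb1, Thbd and Snai1 were higher in ciXEN cells, by 2.22, 1.55 and 0.90 on the log2 scale. Vim and Sparc were lower, at -2.22 and -1.27. MEF libraries 1 and 3 stood apart from library 2 in 29 genes abundant in ciXEN cells (at least 100 FPKM there, and 50 times the lowest MEF library), at 0.667% and 0.758% of the ciXEN mean against 0.0850%. Group differences are log2 fold changes of FPKM + 1 from limma, with Benjamini-Hochberg adjustment over 12443 genes, and a gene was called at an adjusted p under 0.05, two-sided. In bulk RNA, fewer cells of a type and less RNA per cell cannot be told apart.

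**Figure D1:**
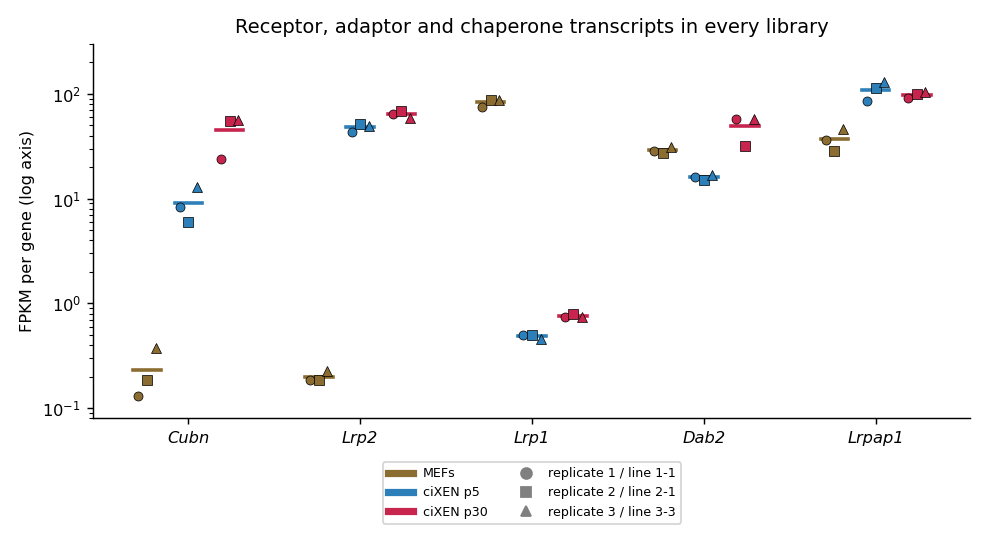
FPKM of the 5 listed members (log axis) in 3 MEF, 3 ciXEN p5 and 3 ciXEN p30 libraries. Points are libraries, shaped by replicate or line, and bars are group means. Cubn and Lrp2 lie below 0.4 FPKM in MEFs, and Lrp1 lies below 0.8 FPKM in every ciXEN library.

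Megalin and cubilin transcripts were close to the floor of the table in MEFs and abundant in ciXEN cells, whereas Lrp1, the most abundant member in MEFs, was nearly lost. Lrpap1 was moderately higher in ciXEN cells. Dab2 was lower than in MEFs at p5 and higher at p30, so its average over both passages did not pass the test. Of the 5 members, 3 were higher and 1 lower in ciXEN cells than in MEFs, where 42.4% and 27.6% of all tested genes were called higher and lower. The values of 4 members did not overlap between the cell types, as for 61.3% of all genes.

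Lrp2 lies at chr2:69424340-69586065 on the minus strand (ENSMUSG00000027070, GRCm38). Its level was 0.185, 0.185 and 0.225 FPKM in MEFs 1, 2 and 3. It was 43.7, 51.3 and 49.1 FPKM in lines 1-1, 2-1 and 3-3 at p5, and 64.2, 68.0 and 59.2 FPKM at p30. The 3 groups did not overlap, and within each group the libraries were close to each other. The ciXEN mean was 55.9 ± 9.40 FPKM (SD, n = 6 libraries of 3 lines, each at p5 and p30). This SD mixes the spread of lines with the passage difference. The mean was 282 times the MEF mean of 0.198 ± 0.0234 (n = 3), with a log2 fold change of 5.55 (SE 0.09, 95% interval 5.35 to 5.75, limma adjusted p = 1.93e-10). The transcript Lrp2-201, with 79 exons and 4660 codons, carried 98.6% to 100% of the gene's FPKM in every library.

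Cubn lies on the same chromosome at chr2:13276338-13491813 on the minus strand (ENSMUSG00000026726) and was listed with 1 transcript of 67 exons and 3623 codons. Its level was 0.132, 0.187 and 0.375 FPKM in the MEF libraries, 8.34, 6.05 and 12.8 FPKM in lines 1-1, 2-1 and 3-3 at p5, and 23.7, 54.7 and 56.0 FPKM at p30. The groups did not overlap here either, but the lines were less alike than for Lrp2, with line 1-1 the lowest at p30. The ciXEN mean was 26.9 ± 22.8 FPKM (SD, n = 6 libraries of 3 lines) and the MEF mean 0.231 ± 0.127 (n = 3). The ratio was 116 and the log2 fold change 4.05 (SE 0.30, 95% interval 3.39 to 4.72, limma adjusted p = 1.93e-06). In MEF libraries 1, 2 and 3, Cubn stood at 0.490%, 0.695% and 1.39% of the ciXEN mean and Lrp2 at 0.331%, 0.330% and 0.403%. These MEF values lie near the floor of the table, so the libraries are not ranked by them. The source of the values was not tested.

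Lrp1 lies at chr10:127538161-127621148 on the minus strand (ENSMUSG00000040249). It had 75.3, 87.7 and 87.2 FPKM in the MEF libraries. In ciXEN lines 1-1, 2-1 and 3-3 it had 0.503, 0.503 and 0.454 FPKM at p5, and 0.740, 0.795 and 0.743 FPKM at p30. Every ciXEN library was therefore below 1 FPKM and far from the MEF range. The MEF mean of 83.4 ± 7.0 (SD, n = 3) was 134 times the ciXEN mean, with a log2 fold change of -5.70 (SE 0.10, 95% interval -5.93 to -5.48, limma adjusted p = 3.68e-10). The transcript Lrp1-201, with 89 exons and 4545 codons, carried 98.9% to 100% of Lrp1 in all libraries other than line 3-3 at p5, where it carried 79.1%. Macrophages also express Lrp1 and Dab2, and 7 listed macrophage markers summed to 95.2 to 160 FPKM in MEFs and 1.49 to 3.45 FPKM in ciXEN cells, with Adgre1, C1qa and C1qb at 0 in all ciXEN libraries. The part of these cells in the Lrp1 and Dab2 differences was not tested.

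Lrpap1 lies at chr5:35091501-35105766 on the minus strand (ENSMUSG00000029103). The chaperone had 36.1, 28.4 and 46.3 FPKM in MEFs, 86.0, 113 and 131 FPKM in the lines at p5, and 90.7, 100.1 and 105 FPKM at p30. All ciXEN libraries were above all MEF libraries, and the passages overlapped. Its ciXEN mean was 2.82 times that of MEFs, with a log2 fold change of 1.49 (SE 0.16, 95% interval 1.11 to 1.86, limma adjusted p = 3.19e-05).

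Dab2 lies at chr15:6299788-6440712 on the plus strand (ENSMUSG00000022150). The adaptor links the tails of megalin and other receptors to clathrin and AP-2. It had 28.4, 27.5 and 31.1 FPKM in MEFs, 16.2, 14.9 and 16.7 FPKM in lines 1-1, 2-1 and 3-3 at p5, and 57.6, 31.7 and 57.8 FPKM at p30. The p5 libraries were thus all below, and the p30 libraries all above, the MEF range, with line 2-1 at p30 just past it. Against MEFs, Dab2 fell by 0.82 on the log2 scale at p5 (SE 0.20, 95% interval -1.28 to -0.36, limma adjusted p = 0.0056) and rose by 0.69 at p30 (SE 0.20, 95% interval 0.23 to 1.15, limma adjusted p = 0.014). The average of both passages differed from MEFs by -0.07 (95% interval -0.46 to 0.33, limma adjusted p = 0.75). The p30 call was lost without line 1-1 at p30 (limma adjusted p = 0.0536), without line 3-3 at p30 (0.054) and without MEFs 1 and 3 together (0.124). With the most abundant transcript standing for the gene, the p30 change turned to -0.05 (adjusted p = 0.925). The p5 call was lost without MEFs 1 and 3 together (0.122).

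**Figure D2:**
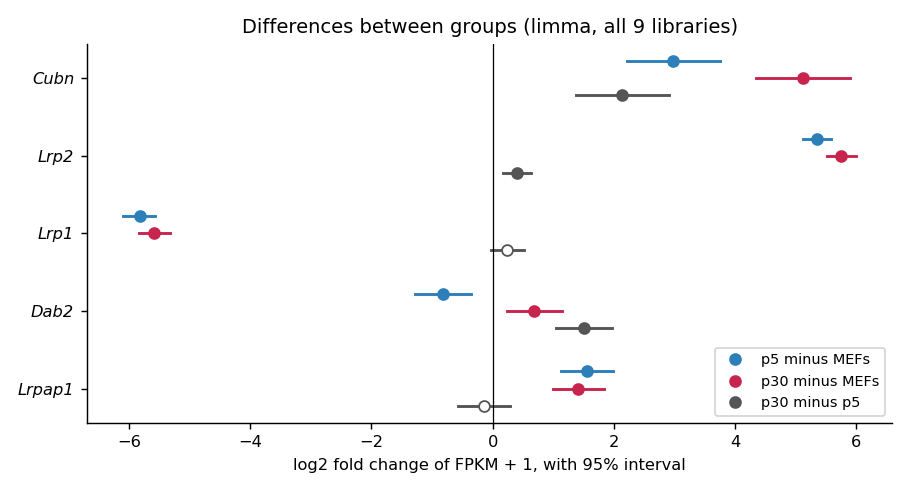
Log2 fold changes of FPKM + 1 for each member, with 95% intervals from the limma fit of 9 libraries, for p5 minus MEFs, p30 minus MEFs and p30 minus p5. Filled points passed an adjusted p of 0.05. Dab2 is the member with calls on both sides of 0, at -0.82 and 0.69.

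Passage by passage, 3 members were higher and 2 lower at p5 than in MEFs, beside 40.7% and 25.8% of all genes, and 4 were higher and 1 lower at p30, beside 38.2% and 26.6%. The values of all 5 members did not overlap with MEFs at either passage, beside 73.9% of all genes at p5 and 69.8% at p30. These comparisons share the MEF libraries. Lrp2 was higher by 5.35 at p5 (limma adjusted p = 1.01e-09) and by 5.75 at p30 (5.79e-10) on the log2 scale, and Cubn by 2.98 (4.91e-05) and 5.12 (1.43e-06). Lrpap1 was higher by 1.56 (7.40e-05) and 1.41 (1.43e-04), and Lrp1 was changed by -5.82 (1.26e-09) and -5.58 (1.65e-09).

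The order of the members by FPKM changed with the cell type. In MEFs the order was Lrp1, Lrpap1, Dab2, Cubn and Lrp2, with means of 83.4, 36.9, 29.0, 0.231 and 0.198 FPKM. The ranges of Lrpap1 and Dab2 overlapped, as did those of Cubn and Lrp2. At p5 the order was Lrpap1, Lrp2, Dab2, Cubn and Lrp1, with means of 110.0, 48.0, 15.9, 9.07 and 0.487 FPKM and no overlap between neighbours. At p30 it was the same, with means of 98.5, 63.8, 49.0, 44.8 and 0.759 FPKM, but Dab2 and Cubn overlapped.

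Lrp1 was the most abundant gene of the LDL receptor family in MEFs, and Lrp2 was in ciXEN cells at both passages. Lrp2 made up 0.210% to 0.258% of the summed FPKM of Lrp1 and Lrp2 in MEFs and 98.8% to 99.1% in ciXEN cells. The sum of both was 75.5 to 87.9 FPKM in MEFs, 44.2 to 51.8 at p5 and 60.0 to 68.8 at p30. Over 14 listed family genes the sum was 180 to 195 FPKM in MEFs, 166 to 170 at p5 and 157 to 186 at p30, so its range overlapped between MEFs and p30. Lrp1 was 41.9% to 46.0% of this sum in MEFs and 0.272% to 0.472% in ciXEN cells, while Lrp2 was 0.0970% to 0.116% in MEFs, 25.8% to 30.9% at p5 and 34.5% to 37.7% at p30. Lrpap1, the chaperone of both receptors, stood at 0.324 to 0.529 times their summed FPKM in MEFs, 1.95 to 2.65 times at p5 and 1.40 to 1.74 times at p30.

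The comparison of p30 with p5 follows the same 3 lines through continued culture. Cubn, Dab2 and Lrp2 were higher at p30 and no member was lower, that is 3 of 5 higher where 3.08% of all genes were called higher and 5.61% lower. For Cubn, Lrp2, Dab2 and Lrp1 the p5 and p30 values did not overlap, as for 28.8% of all genes in either direction. Their p30 value was therefore above the p5 value in each of the 3 lines, for Lrp1 at under 1 FPKM. Lrp1 and Lrpap1 did not pass the test.

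Cubn rose 2.84, 9.04 and 4.36 times in lines 1-1, 2-1 and 3-3. The ratio of the group means was 4.94 and the log2 fold change 2.14 (SE 0.34, 95% interval 1.37 to 2.91, limma adjusted p = 0.0078). The line with the lowest Cubn at p5, 2-1, thus had the steepest rise. With the line as a block, the call held in the fit of 9 libraries (limma adjusted p = 0.0109) and not with the passages alone (0.124). Here and below, the block over 9 libraries also ties each MEF library to a line by replicate number only, which is no real pairing. The call was also lost without MEFs 1 and 3 together (0.0578) and with the passages alone and no block (0.0562).

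Dab2 rose 3.56, 2.13 and 3.46 times in lines 1-1, 2-1 and 3-3, with a ratio of means of 3.08 and a log2 fold change of 1.51 (SE 0.20, 95% interval 1.05 to 1.97, limma adjusted p = 0.0041). With the line as a block, its adjusted p was 0.00695 over 9 libraries and 0.111 with the passages alone, and with the most abundant transcript standing for the gene it was 0.0696. Chromosome 15, which carries Dab2, had a median log2 change of -0.28, -0.03 and -0.06 over 491 genes in the 3 lines. Dab2 itself changed by 1.77, 1.04 and 1.73. A median over a chromosome does not describe single regions, and the cause of the Dab2 rise was not tested.

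Lrp2 rose 1.47, 1.32 and 1.21 times, a log2 fold change of 0.40 (SE 0.10, 95% interval 0.17 to 0.63, limma adjusted p = 0.042). This call was the least steady. With the line as a block its adjusted p was 0.0794 over 9 libraries and 0.143 with the passages alone, and it was lost when any 1 of the 9 libraries was left out (adjusted p 0.0519 to 0.159). As Cubn rose more than Lrp2, the ratio of Lrp2 to Cubn went from 5.24, 8.48 and 3.83 at p5 to 2.71, 1.24 and 1.06 at p30 in lines 1-1, 2-1 and 3-3. The ratio was lower at p30 in every line, and the p5 and p30 ranges did not overlap.

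**Figure D3:**
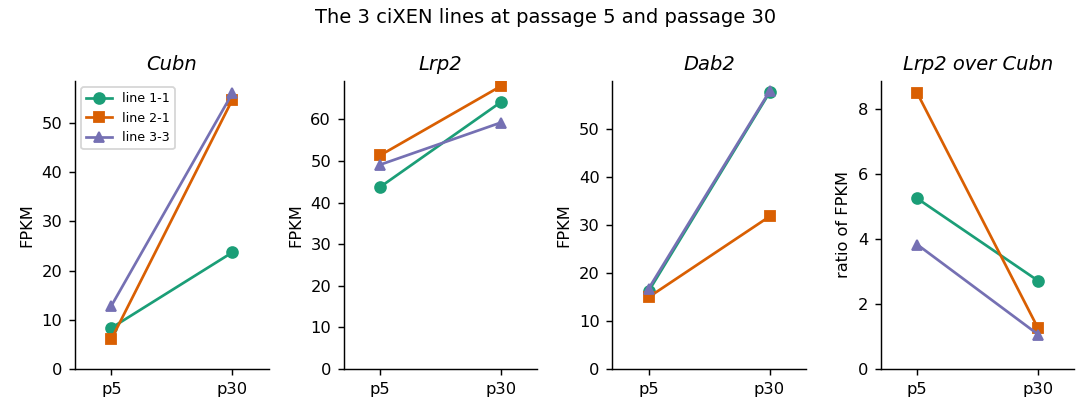
FPKM of Cubn, Lrp2 and Dab2, and the ratio of Lrp2 to Cubn, in ciXEN lines 1-1, 2-1 and 3-3 at p5 and p30 (linear axes from 0, 1 library per point). Every line rises for the 3 genes, and the ratio falls from between 3.83 and 8.48 to between 1.06 and 2.71.

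Lrpap1 at p30 was 1.05, 0.887 and 0.797 times its p5 level, with a log2 fold change of -0.14 (95% interval -0.57 to 0.29, limma adjusted p = 0.71). Lrp1 was 1.47, 1.58 and 1.64 times its p5 level at under 1 FPKM, with a log2 fold change of 0.24 (95% interval -0.02 to 0.51, limma adjusted p = 0.23). On the FPKM scale the p5 and p30 values of 4 members, Lrp1 among them, did not overlap, beside 28.8% of all genes, while those of Lrpap1 did.

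Dab2 is known in 2 main protein forms, a long form with the central stretch that binds clathrin and AP-2 and a short form without it. In the transcript Dab2-202 (766 codons) the long internal coding exon is exon 10 of 15, at chr15:6429296-6429949 (654 bases, 218 codons). Of the 8 listed Dab2 transcripts, 3 hold this exon, 2 skip it and 3 end before it. The transcripts that hold it had 25.4, 24.7 and 28.4 FPKM in MEFs, 11.8, 7.39 and 12.7 FPKM in lines 1-1, 2-1 and 3-3 at p5, and 17.6, 23.5 and 42.5 FPKM at p30. Their share of Dab2 was 89.5% to 91.5% in MEFs and lower in every ciXEN library, at 72.7%, 49.5% and 75.9% at p5 and 30.5%, 73.9% and 73.6% at p30. The transcripts that skip it had 1.26 to 1.47 FPKM in MEFs, 2.59 to 5.38 FPKM at p5 and 4.26 to 8.67 FPKM at p30. Their share was 4.06% to 5.19% in MEFs, 15.5% to 36.0% at p5 and 12.4% to 15.1% at p30, again without overlap between MEFs and ciXEN cells. FPKM of overlapping transcripts rest on how reads were divided among them, so these shares carry an error that is not given in the table.

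**Figure D4:**
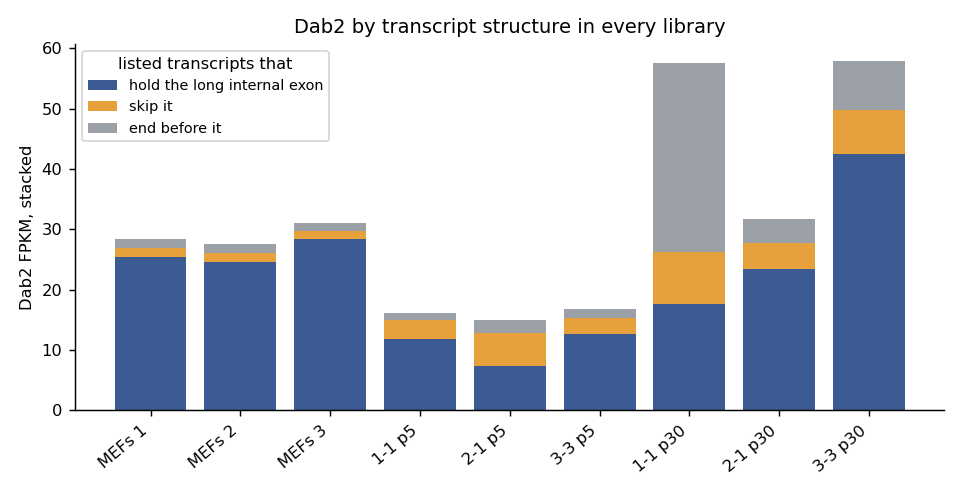
Dab2 FPKM in each of the 9 libraries, stacked by listed transcripts that hold the long internal exon, skip it or end before it. In line 1-1 at p30 the transcripts that end before the exon make up 54.5% of Dab2, against 4.43% to 14.5% in the other libraries.

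Over 23552 tested transcripts, 6 of the 12 tested member transcripts were called between ciXEN cells and MEFs, beside 45.5% of all transcripts, and 1 of 12 between the passages, beside 1.79%. The latter was the only listed Cubn transcript (log2 fold change 2.14, limma adjusted p = 0.031). This call was lost with the line as a block, both over 9 libraries and with the passages alone. Of the Dab2 transcripts, Dab2-203 (548 codons, without the long exon) was the one called between ciXEN cells and MEFs (log2 fold change 1.41, limma adjusted p = 0.014), with 0.193 to 0.434 FPKM in MEFs and 1.06 to 5.38 FPKM in ciXEN cells. Dab2-202 was lower at p5 than in MEFs by a log2 fold change of -1.39 (limma adjusted p = 0.014) and differed by -0.05 at p30 (adjusted p = 0.94), where 41.6% and 39.7% of all transcripts were called at p5 and p30. Dab2-208 (236 codons), which ends before the exon, had 29.0 FPKM in line 1-1 at p30, 50.4% of Dab2 there, and 0.553 to 6.14 FPKM in the other 8 libraries. With Dab2-208 left out, Dab2 at p30 was 28.6, 30.7 and 51.7 FPKM in lines 1-1, 2-1 and 3-3. Its change from p5 was then 1.20 (limma adjusted p = 0.00861), and its change from MEFs 0.33 (adjusted p = 0.166), no longer called. Dab2-209, the only listed transcript from the upstream start, had 0 to 1.37 FPKM.

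The other genes of the pathway were taken from 7 lists with 99 tested genes. The lists were chosen by role, with earlier results of these data known. Of these, 34 were higher and 36 lower in ciXEN cells than in MEFs and 29 did not pass the test, beside 42.4% and 27.6% of all genes called higher and lower, with a median log2 fold change of 0.06 against 0.20 over all genes. Among 12 other LDL receptor family genes, 3 were higher, 3 lower and 6 did not pass (median 0.05). Sorl1, a sorting receptor of the endosome, was higher by 3.00 on the log2 scale (limma adjusted p = 6.52e-06), with 0.104 to 0.463 FPKM in MEFs and 5.30 to 14.5 FPKM in ciXEN cells. Lrp4, a co-receptor of agrin signalling in muscle, was higher by 1.72 (3.73e-05). Lrp12 was changed by -1.51 (1.33e-05) and Vldlr, the very low density lipoprotein receptor, by -0.75 (6.74e-04).

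Of 14 genes for the folding, cleavage and shedding of these receptors, 2 were higher, 9 lower and 3 did not pass (median -0.41), beside 42.4% higher and 27.6% lower over all genes. Mmp14, a membrane metalloproteinase that can shed Lrp1, had 184 to 213 FPKM in MEFs and 0.626 to 3.54 FPKM in ciXEN cells (log2 fold change -6.03, limma adjusted p = 6.70e-08). Furin, the protease that cleaves the Lrp1 precursor, was changed by -1.99 (9.10e-07), a direction that turned to 0.09 (adjusted p = 0.911) when the most abundant transcript stood for the gene. Adam10, a sheddase, was higher by 1.62 (3.16e-05) and Mesd, a chaperone of the LRP5 and LRP6 type receptors, by 0.63 (7.87e-04).

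Coat and adaptor genes were split, with 6 of 22 higher, 7 lower and 9 not passing (median 0.05). Beside this and the next list stand 42.4% higher and 27.6% lower over all genes. Myo6, the motor that moves endocytic vesicles from the base of microvilli and binds Dab2, had 4.60 to 5.53 FPKM in MEFs and 17.5 to 30.6 FPKM in ciXEN cells (log2 fold change 1.95, limma adjusted p = 7.07e-07). Picalm, a clathrin assembly protein, had 139 to 164 FPKM in MEFs and 28.1 to 31 FPKM in ciXEN cells (log2 fold change -2.33, limma adjusted p = 7.09e-09). Of 19 genes of the endosome and lysosome route, 8 were higher, 3 lower and 8 did not pass (median 0.22), a count of higher genes near the 42.4% over all genes. Atp6v0a1, a subunit of the proton pump, was higher by 1.97 (6.23e-06), and Ocrl, the lipid phosphatase whose loss gives a proximal tubule disorder in people, was changed by -0.94 (4.67e-05).

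Of 10 tested ligands of cubilin and megalin, 6 were higher, 2 lower and 2 did not pass (median 0.89), and 6 others, Alb, Apob, Apom, Gc, Trf and Ttr, were below the filter of a mean of 0.5 FPKM. Beside this and the next lists stand 42.4% higher and 27.6% lower over all genes. Apoe had 21 to 30.3 FPKM in MEFs and 99.3 to 301 FPKM in ciXEN cells (log2 fold change 2.74, limma adjusted p = 3.67e-07). Clu, or clusterin, rose by 3.33 (SE 0.60, limma adjusted p = 8.22e-04). Its MEF libraries were far apart, at 63.5, 6.41 and 38.4 FPKM, against 147 to 382 FPKM in ciXEN cells. Tcn2, which carries vitamin B12, rose by 1.17 (1.6e-05), and B2m was changed by -1.63 (8.51e-06). Of 12 tested ligands of LRP1, 3 were higher, 9 lower and 0 did not pass (median -3.65). Thbs1 (thrombospondin 1) had 954 to 1162 FPKM in MEFs and 2.87 to 4.56 FPKM in ciXEN cells (log2 fold change -7.87, limma adjusted p = 1.40e-10). The heparin-binding growth factor Mdk rose by 2.89 (8.55e-07) and the coagulation inhibitor Tfpi by 2.04 (1.42e-06). Of 10 genes of cobalamin handling, 6 were higher, 3 lower and 1 did not pass (median 0.34), with Mtr, methionine synthase, higher by 0.85 (6.77e-05) and Mmadhc changed by -0.63 (1.85e-04).

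**Figure D5:**
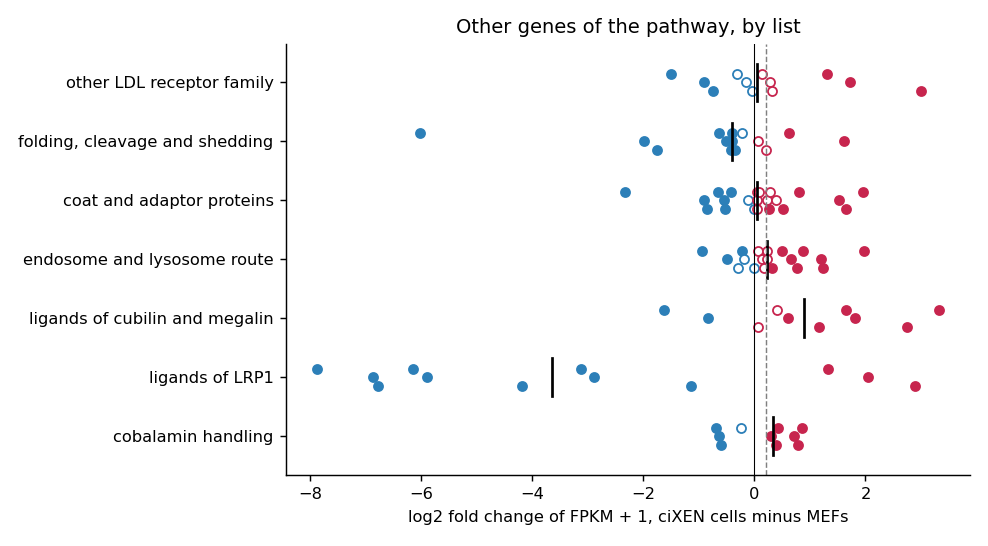
Log2 fold changes of FPKM + 1, ciXEN cells minus MEFs, for 99 tested genes in 7 lists. Filled points passed an adjusted p of 0.05, black bars are list medians and the dashed line is the median of all genes, 0.20. The LRP1 ligands have a median of -3.65.

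Between the passages, 8 of the 99 pathway genes were higher, 4 lower and 87 did not pass, beside 3.08% and 5.61% of all genes. Of the ligands of cubilin and megalin, 3 of 10 were higher and 1 lower. Rbp4, the plasma carrier of retinol, had 0.839, 0.535 and 0.120 FPKM in lines 1-1, 2-1 and 3-3 at p5, and 5.03, 12.6 and 8.98 FPKM at p30 (log2 fold change 2.67, limma adjusted p = 0.00274). Apoe rose by 1.08 (adjusted p = 0.0092) and Mt2, a metallothionein, fell by 1.64 (0.0345). In the other lists, Tfpi rose by 1.28 (0.00342), Ldlrad3 by 0.93 (0.009), Lrp8 by 0.98 (0.0364) and Mtr by 0.58 (0.0214), while Lrp4 was changed by -1.01 (0.0273). None of the 19 endosome and lysosome genes passed. With the line as a block and the passages alone, none of these pathway calls held, with adjusted p of 0.119 for Rbp4 and 0.14 for Apoe. With the block over 9 libraries, the calls of Lrp8 (adjusted p = 0.0662) and Pdia3 (0.0805), a protein disulfide isomerase, were lost.

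The genes most like each member were sought by the smallest root mean square difference of centred log2(FPKM + 1) profiles over the 9 libraries, as a description. For Lrp2 they were Dusp9 (0.15), Mpzl2 (0.17) and Hkdc1 (0.23), and for Cubn Tdh (0.44), Fgf3 (0.51) and Ngfr (0.54). Cubn thus had no gene as close as Lrp2 had. Tdh had means of 0.0637 FPKM in MEFs, 10.0 at p5 and 68.8 at p30. For Dab2 they were Cgnl1 (0.28), Gpt2 (0.29) and Gchfr (0.30), for Lrpap1 Zfp850 (0.16), Zranb3 (0.17) and Tha1 (0.17), and for Lrp1 Igfbp6 (0.15), Itga11 (0.15) and Emp3 (0.15).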

How the data were processed

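Ribosomal RNA was removed, libraries were made with a stranded kit and sequenced on an Illumina instrument. The deposited values are FPKM of 29599 transcripts, which the authors computed. The submitters' processing notes name cutadapt, HISAT2 2.0.5, StringTie, STAR 2.5.2b and the human build hg19, while the transcript IDs are of mouse. The aligner and build behind the FPKM remain unknown: not given in the sources used here. Read depth is unknown, so no counting interval is given.

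Transcripts were matched by stable ID to GENCODE M21 on GRCm38 (29521 matched, 78 not, with 0.158% of the FPKM) and summed per gene. Genes averaging 0.5 FPKM or more over the libraries (12443) entered limma 3.58.1 in R 4.3.3 as log2(FPKM + 1) (1 fit of 9 libraries in 3 groups, eBayes with trend, 6 residual degrees of freedom, Benjamini-Hochberg adjustment within each of 4 comparisons, two-sided). Transcripts were tested the same way. The pseudocount of 1 understates changes of low genes. Libraries of 1 group are separate samples or lines per the labels, and nothing says that the MEF libraries came from separate embryos, so p-values may measure technical spread there.

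Libraries of the same number at p5 and p30 are the same line per the labels, which pairs them. Their deviations from group means correlated at -0.0054, 0.014 and 0.071. MEFs share only a number with the lines. An alternative fit had this number as a block. Other alternatives changed the pseudocount, filter, scaling, transcripts used and libraries.

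The members and lists were chosen with earlier results of these data known. The pathway genes named come from the called genes with the largest changes in each list and comparison, up to 4 per direction. Tcn2 was added after its values were seen. Some genes of the lists are not reported here by name. The steps were tested on simulated data. Promoters of all 5 listed members were matched by symbol in a RefSeq table. Protein sequences were not used here.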

Additional observations from a re-analysis of the deposited data

Results flagged for a closer look

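Of 17 members and member transcripts looked at over the 6 ciXEN libraries, 1 had a library far from the rest. Dab2-208 had 29.0 FPKM in line 1-1 at p30, and its gap to the next ciXEN library, 6.14 FPKM in line 3-3 at p30, was 0.804 of the range of all 6. Chance sets apart about 1 group in 20.

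The changes from MEFs differed between the passages for 3 members, by the limma contrast of p30 with p5. The MEF values cancel in it, so it is the test already given above and not a further result. The difference was 2.14 on the log2 scale for Cubn (adjusted p = 0.0078), 0.40 for Lrp2 (0.042) and 1.51 for Dab2 (0.0041). It was positive in 3 of 3 lines for each of them. This follows from p5 and p30 ranges that did not overlap, and adds no further support. With the line as a block and the passages alone none of the 3 calls held (adjusted p = 0.124, 0.143 and 0.111), and that of Lrp2 was also lost with the block over 9 libraries (0.0794).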

How the results depend on the processing

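Against MEFs, Cubn, Lrp2, Lrpap1 and Lrp1 kept direction and call in all 23 alternatives and in each comparison. Over the named genes, 1680 values stayed on their side of the threshold, 136 lost the call in the same direction and 2 called values reversed. The uncalled value of Dab2 in ciXEN cells against MEFs ran from -0.72 to 0.07. With the most abundant transcript alone, Dab2 at p30 against MEFs turned to -0.0454 (adjusted p = 0.925) and Furin in ciXEN cells against MEFs to 0.0887 (0.911). The cause was not tested. Without MEFs 1 and 3 together, 1 member rather than 2 was lower at p5.

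Between the passages, 3 members were higher. This fell to 1 with the passages alone, 1 with the most abundant transcript alone and 1 without MEFs 1 and 3. With the replicate block, that is the pairing by line, and the passages alone it was 0. That fit called 0 of 12443 genes by limma, with 2538 at an unadjusted p under 0.05, while the block over 9 libraries called 813 against 1081 without it. The 12 pathway genes called became 20 with equal library medians, 3 with the passages alone, 0 with the block and the passages alone, 5 with the most abundant transcript alone and 3 without MEFs 1 and 3. Leaving out 1 library gave 4 to 13. The lowest was without line 1-1 at p5, and fewer than 8 were left without MEFs 1 (7), MEFs 3 (6) or line 2-1 at p5 (6). The 1 member transcript called became 2 with equal medians and 0 with a pseudocount of 0.1, with either block fit, with the passages alone or without MEFs 1 and 3. Leaving out 1 library gave 0 to 1, and it was 0 without any MEF library, line 1-1 or 2-1 at p5, or line 2-1 or 3-3 at p30. Lrp2 at p30 against p5 lost its call in 18 of 23 alternatives (adjusted p 0.0172 to 0.159).

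Of all calls between the passages, 35.4% were higher as reported, 58.2% with equal medians and 46.6% with quantile normalisation. The median of all genes was 0.20 between ciXEN cells and MEFs. Only 3 libraries a group and no read counts limit the precision of low genes such as Lrp1 in ciXEN cells.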
